A study of Parachlorella kessleri with 6 samples.

Results

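The single-celled green alga Parachlorella kessleri was profiled by RNA-seq after 2 days in culture, with 3 control libraries and 3 libraries from cells under salt stress. No strain, genotype or salt concentration is given in the sources used here, and both groups are otherwise labelled alike. The genes described here are 6 assembled rows that code for enzymes between glutamate-1-semialdehyde and protoporphyrin, out of 22972 rows in the table. They were chosen by identifier and are 1 glutamate-1-semialdehyde aminomutase, 1 delta-aminolevulinic acid dehydratase, 2 porphobilinogen deaminases, 1 coproporphyrinogen oxidase and 1 protoporphyrinogen oxidase. All 6 were well enough counted to be tested. Enzyme names come from the deposited annotation, by best match in other organisms, and activity was not measured.

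In plants and algae, 5-aminolevulinate is made in the plastid from glutamate that is bound to its transfer RNA, and all chlorophyll and heme derive from it. Glutamyl-tRNA reductase makes glutamate-1-semialdehyde, and the aminomutase turns this into aminolevulinate. Aminolevulinate dehydratase, porphobilinogen deaminase and uroporphyrinogen-III synthase then build the first ring molecule, and uroporphyrinogen decarboxylase, coproporphyrinogen oxidase and protoporphyrinogen oxidase convert it to protoporphyrin. Free porphyrins are photosensitisers, and flux through this pathway is known to be tightly controlled in photosynthetic cells.

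The libraries held 16460455 to 24065705 counts. Levels are CPM, read counts relative to library size after scaling by TMM factors, or FPKM where genes are compared with each other, since FPKM divides by transcript length. Marker rows of a green alga were present, though they cannot identify the species. Rows named chlorophyll a-b binding protein held 0.217, 0.507 and 0.509% of counts in control replicates 1 to 3. In salt they held 0.845 to 1.12%. Rows for the small chain of ribulose bisphosphate carboxylase held 0.184 to 0.273% of each library. Control replicate 1 stood apart from the other controls, and salt replicate 1 less so from the other salt libraries. Counts of control replicates 2 and 3 differed with a chi-square of 5.43 per gene, whereas control replicate 1 differed from them by 151 and 175 per gene. Between salt libraries the values were 61.4 and 50.9 with replicate 1 and 33.9 without it. Amphibian-matched rows held 4 to 20 counts in all in the replicate 1 libraries and 200 to 3850 in the others, and Staphylococcus rows held 167 to 418 counts in control and 991 to 1197 in salt. Their part in the results was not tested. Each fold change of the 6 genes below is therefore also given for replicates 2 and 3 alone. Nothing in the labels states that replicates are separate cultures, and p-values cover only the spread between these libraries. All levels are relative to the reads counted in a library, so amounts of RNA per cell cannot be read from them.

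Of the 6 genes, 5 rose and 1 fell in salt. Among all 11438 genes tested with edgeR, 29.1% were raised and 28.7% lowered at an adjusted p under 0.05. The 3 enzymes that lead from glutamate-1-semialdehyde to hydroxymethylbilane rose 10.2-fold to 13.6-fold, the 2 oxidases at the end of the pathway rose 2.93-fold and 6.47-fold, and the remaining porphobilinogen deaminase fell 6.52-fold. In the 5 raised genes every salt library lay above every control library, as it did in 34.1% of all tested genes. In the lowered gene every salt library lay below every control library, as in 32.6% of tested genes. The median log2 fold change was 3.02 for the 6 genes and 0.01 for all tested genes. The genes were chosen with results of these data known, so these counts describe them and do not test them as a group.

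**Figure D1:**
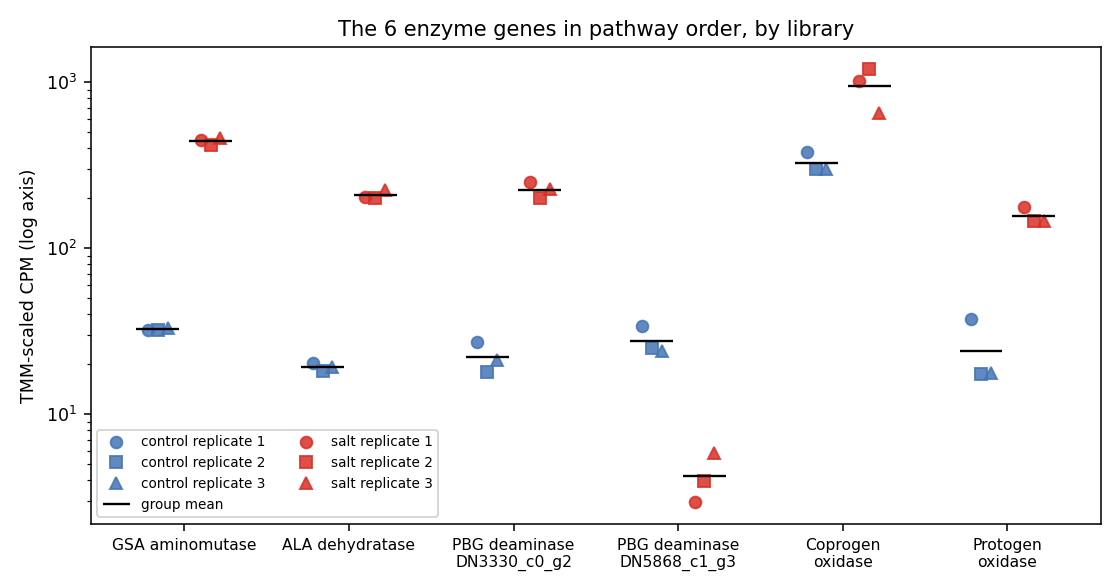
TMM-scaled CPM (log axis) of the 6 genes in pathway order (GSA, glutamate-1-semialdehyde; ALA, aminolevulinate; PBG, porphobilinogen; Coprogen and Protogen, coproporphyrinogen and protoporphyrinogen). Each point is 1 library, colour gives the condition, marker shape the replicate, and bars are group means; the groups do not overlap in any gene, and only the porphobilinogen deaminase TRINITY_DN5868_c1_g3 is lower in salt.

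Glutamate-1-semialdehyde aminomutase (TRINITY_DN5113_c0_g2), the enzyme that forms aminolevulinate, had 32.1, 32.2 and 33.2 CPM in control replicates 1 to 3 and 447, 417 and 461 CPM in salt replicates 1 to 3. The libraries of each group lay close together, and every salt value was far above every control value. The log2 fold change was 3.76 (SE 0.11, edgeR adjusted p = 1.5e-05), with 3.75 in replicates 2 and 3 alone. Of all tested genes, 1.63% had a larger log2 fold change. The row carries 1 aminotransferase class-III domain, at residues 74 to 457 of its predicted protein. One other row shares its Trinity cluster, the group of rows that the assembler linked. That row has no description, and its log2 fold change was -0.03 (adjusted p = 0.858). With both rows summed the log2 fold change was 3.08 (adjusted p = 1.2e-05).

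Aminolevulinate dehydratase (TRINITY_DN3837_c0_g1) joins a pair of aminolevulinate molecules into porphobilinogen. It had 20.4, 18.1 and 19.4 CPM in the control libraries and 203, 200.5 and 225 CPM in the salt libraries. Neither group had a library that stood away from the others. The log2 fold change was 3.44 (SE 0.12, edgeR adjusted p = 1.5e-05), and 3.51 in replicates 2 and 3 alone. A short row with the same name (TRINITY_DN3837_c0_g2) held 1 count in salt replicate 2 and 0 elsewhere and was not tested. Relative to the dehydratase, the aminomutase rose slightly more. The log2 ratio of aminomutase to dehydratase counts within a library went from 0.75 ± 0.09 in control to 1.08 ± 0.06 in salt (SD, n = 3 each), and the groups did not overlap. This difference was not tested. With Trinity clusters summed the order was reversed, with log2 fold changes of 3.08 for the aminomutase cluster and 3.43 for the dehydratase cluster.

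Porphobilinogen deaminase links porphobilinogen units into the linear tetrapyrrole hydroxymethylbilane, and its 2 rows moved in opposite directions. TRINITY_DN3330_c0_g2 had 27.1, 17.9 and 21.3 CPM in control and 252, 199.7 and 227 CPM in salt. All 3 salt libraries lay far above the controls, and replicate 1 was the highest in both groups. Its log2 fold change was 3.35 (SE 0.19, edgeR adjusted p = 3.41e-05), and 3.45 in replicates 2 and 3 alone. The dehydratase and this deaminase changed by nearly equal amounts: the log2 ratio of their counts was -0.18 ± 0.22 in control and -0.11 ± 0.18 in salt (SD, n = 3 each), with overlapping groups.

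TRINITY_DN5868_c1_g3, the other porphobilinogen deaminase, had 34.2, 25.1 and 23.9 CPM in control and 2.95, 3.97 and 5.84 CPM in salt. These values rest on 380 to 714 counts in control and 65 to 134 counts in salt. Replicate 1 was the highest control library and the lowest salt library, so its pair showed the widest gap. The log2 fold change was -2.70 (SE 0.29, edgeR adjusted p = 0.000327), and -2.31 (adjusted p = 0.000305) in replicates 2 and 3 alone. Of all tested genes, 4.62% had a lower log2 fold change.

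The 2 deaminase rows had similar levels in control and far apart levels in salt. In control, TRINITY_DN3330_c0_g2 had 12.05 to 15.0 FPKM and TRINITY_DN5868_c1_g3 had 8.01 to 9.99 FPKM. In salt they had 124 to 162 FPKM and 0.986 to 1.96 FPKM. The share of their summed FPKM held by TRINITY_DN5868_c1_g3 was 39.9, 42.2 and 36.9% in control replicates 1 to 3 and 0.604, 1.02 and 1.33% in salt replicates 1 to 3. The log2 ratio of the counts of TRINITY_DN3330_c0_g2 to those of TRINITY_DN5868_c1_g3, which needs no scaling between libraries, went from -0.33 ± 0.16 in control to 5.77 ± 0.58 in salt (SD, n = 3 each). The change of 6.10 had an exact two-sided permutation p = 0.1, the smallest that 3 against 3 libraries allow. Each row alone separates the groups, in opposite directions, so the choice of this pair fixed p at that value. It is no separate evidence. The summed FPKM of the pair was 20.9 to 25.0 in control and 125 to 163 in salt, so the total for this step followed the raised row.

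**Figure D2:**
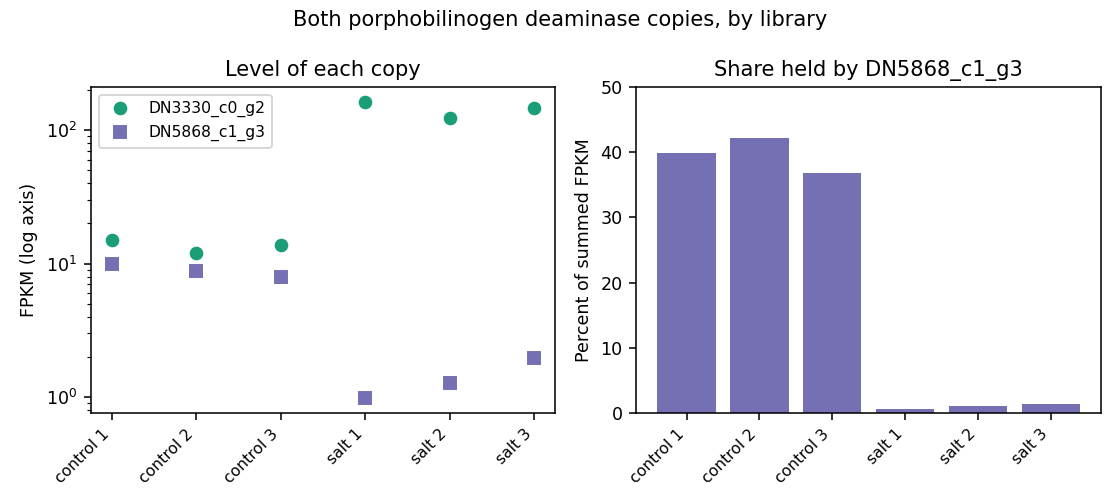
Left, FPKM (log axis) of both porphobilinogen deaminase rows in each library; right, bars from 0 give the percent of their summed FPKM held by TRINITY_DN5868_c1_g3. That row holds 36.9 to 42.2% in the control libraries and 0.604 to 1.33% in the salt libraries.

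The 2 rows also differed in what the annotation found in them. TRINITY_DN3330_c0_g2 carries the deaminase domain that binds the dipyrromethane cofactor (residues 46 to 259) and the C-terminal domain of the enzyme (residues 273 to 345). TRINITY_DN5868_c1_g3 carries the first of these (residues 50 to 259) and no C-terminal domain is listed for it. The transcript length implied by counts and FPKM was 1591 ± 4.298 bases for TRINITY_DN3330_c0_g2 and 3041 ± 26.8 bases for TRINITY_DN5868_c1_g3 (control libraries, SD, n = 3), and salt libraries gave 1591 and 3065 bases. TRINITY_DN5868_c1_g3 shares its Trinity cluster with 8 rows that have no description, and held 4.87% of the cluster's counts in control and 0.899% in salt. Within the cluster, TRINITY_DN5868_c1_g1 changed most among the others, from 52, 156 and 140 counts in control replicates 1 to 3 to 431, 694 and 695 in salt replicates 1 to 3 (log2 fold change 2.11, edgeR adjusted p = 0.00664); it was singled out after its values were seen. Of the other tested rows there, 2 more rose, 2 fell and 1 had no call, with log2 fold changes from -0.81 to 0.99. With the whole cluster summed, the log2 fold change was -0.29 (adjusted p = 0.0225) in place of -2.70. Whether reads passed between these rows was not tested.

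Coproporphyrinogen oxidase (TRINITY_DN5925_c0_g1) converts coproporphyrinogen to protoporphyrinogen. It had 379, 299 and 299 CPM in control and 1012, 1201 and 651 CPM in salt. Salt replicate 3 was lowest in its group but still above every control library. The log2 fold change was 1.55 (SE 0.25, edgeR adjusted p = 0.00174), with 1.64 (adjusted p = 0.00394) in replicates 2 and 3 alone. The row is not a pure coproporphyrinogen oxidase transcript. Its domains fall in 4 predicted reading frames, of which 1 holds the oxidase domain (residues 78 to 379) and the other 3 hold ABC transporter and AAA domains, and its implied length was 5781 ± 173 bases in control. Its counts can therefore come from either part. The cluster also holds TRINITY_DN5925_c0_g2 (log2 fold change -0.32, adjusted p = 0.0925) and TRINITY_DN5925_c0_g3 (0.16, adjusted p = 0.4), and with all 8 rows summed the log2 fold change was 1.08 (adjusted p = 0.00232).

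The 3 other rows that carry the oxidase domain rose as well, and none of them carries an ABC transporter domain. TRINITY_DN4815_c1_g4 had 125, 75.1 and 90.6 CPM in control and 628, 767 and 271 CPM in salt, and like TRINITY_DN5925_c0_g1 it was lowest in salt replicate 3. Its log2 fold change was 2.52 (SE 0.40, edgeR adjusted p = 0.00177). TRINITY_DN4815_c1_g2 had 90.1, 34.9 and 33.9 CPM in control and 237, 196 and 216 CPM in salt (2.03, SE 0.39, adjusted p = 0.00406). It was high in control replicate 1 and showed no dip in salt replicate 3. TRINITY_DN4880_c0_g3 had 5.66, 2.999 and 3.15 CPM in control and 14.7, 15.2 and 15.0 CPM in salt (1.92, SE 0.28, adjusted p = 0.00119). Its matches are the human mitochondrial enzyme and a hypothetical protein of Volvox, among others, and the location of the algal protein was not tested. Per transcript length, TRINITY_DN4815_c1_g4 had 58.2 ± 8.69 FPKM in control and 343 ± 152 FPKM in salt (SD, n = 3), against 55.4 ± 2.82 and 176 ± 56.7 FPKM for TRINITY_DN5925_c0_g1. Of the FPKM summed over these 4 rows, TRINITY_DN5925_c0_g1 held 31.8 to 40.2% in control and 25.0 to 26.3% in salt. TRINITY_DN4815_c1_g4 held 36.6 to 41.2% in control and 38.4 to 56.1% in salt, lowest among the salt libraries in replicate 3.

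One further row named for this step fell. TRINITY_DN5828_c3_g1 matches an oxygen-independent coproporphyrinogen oxidase-like protein of a cyanobacterium and carries a radical SAM domain instead of the oxidase domain. It had 149, 176 and 161 CPM in control and 82.4, 89.0 and 97.5 CPM in salt (log2 fold change -0.86, SE 0.12, edgeR adjusted p = 0.000899). Members of this like-named family are known in other organisms to have roles apart from porphyrin synthesis, and the name does not place it in the pathway.

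**Figure D3:**
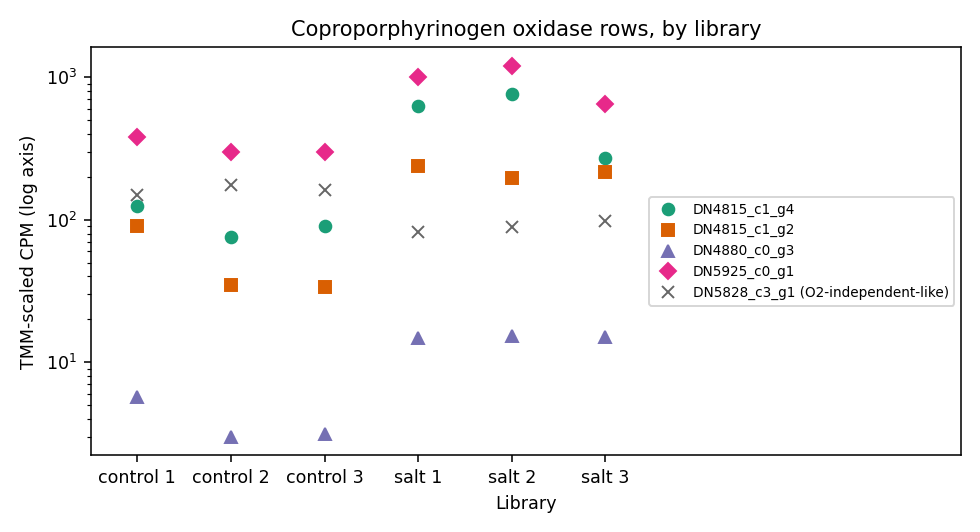
TMM-scaled CPM (log axis) in each library of the 4 rows with the coproporphyrinogen oxidase domain and of the oxygen-independent-like row TRINITY_DN5828_c3_g1 (crosses). The 4 domain-bearing rows have all salt libraries above all control libraries, and the crosses have them below; CPM is not divided by length, so heights of different rows are not levels to compare.

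Protoporphyrinogen oxidase (TRINITY_DN2908_c0_g1) makes protoporphyrin, the last product shared by the chlorophyll and heme branches. It had 37.4, 17.4 and 17.7 CPM in control and 177, 147 and 146 CPM in salt. Control replicate 1 stood well above the other controls, and all salt libraries lay above it. The log2 fold change was 2.69 (SE 0.32, edgeR adjusted p = 0.000492), and 3.07 (SE 0.08, adjusted p = 1.76e-05) in replicates 2 and 3 alone. Its row carries a flavin-containing amine oxidoreductase domain (residues 106 to 490). Relative to this oxidase, the aminomutase rose by 0.98 more on the log2 scale within a library and the dehydratase by 0.65 more, and in both ratios the groups did not overlap. Without control replicate 1 these differences were 0.60 and 0.33, still with no overlap. Neither difference was tested. With Trinity clusters summed, the log2 fold changes were 3.08 for the aminomutase, 3.43 for the dehydratase and 2.68 for this oxidase. The lead of the aminomutase was then smaller.

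Per transcript length, coproporphyrinogen oxidase was the most abundant of the 6 in control, with 55.4 ± 2.82 FPKM, and its fused row makes this value uncertain. Aminolevulinate dehydratase had 18.1 ± 4.1996, the deaminase TRINITY_DN3330_c0_g2 13.6 ± 1.49, the aminomutase 11.3 ± 1.14, protoporphyrinogen oxidase 10.6 ± 3.88 and the deaminase TRINITY_DN5868_c1_g3 8.93 ± 0.997 FPKM (mean ± SD, n = 3). Neighbours in this order overlapped in their libraries, except coproporphyrinogen oxidase, which stood apart, and the raised deaminase, whose lowest library just exceeded the highest of the aminomutase. In salt, the order was aminolevulinate dehydratase with 196 ± 21.1, coproporphyrinogen oxidase with 176 ± 56.7, the aminomutase with 152 ± 11.2, TRINITY_DN3330_c0_g2 with 144 ± 19.3, protoporphyrinogen oxidase with 72.4 ± 9.37 and TRINITY_DN5868_c1_g3 with 1.40 ± 0.499 FPKM (n = 3). Neighbours among the first 4 overlapped in their libraries, and the last 2 stood apart from those above them.

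The other rows of the pathway were found by words in their descriptions. Of 20 rows named for a step from glutamyl-tRNA to protoporphyrin, 18 were tested, 15 rose, 2 fell and 1 had no call; their median log2 fold change was 1.73. Leaving out the 6 genes, 12 were tested, 10 rose, 1 fell and 1 had no call, with a median of 1.497. Of all tested genes 57.8% were called in either direction. The untested rows were the short dehydratase row and a glutamyl-tRNA reductase row that matches Staphylococcus aureus and held 3 counts in all.

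**Figure D4:**
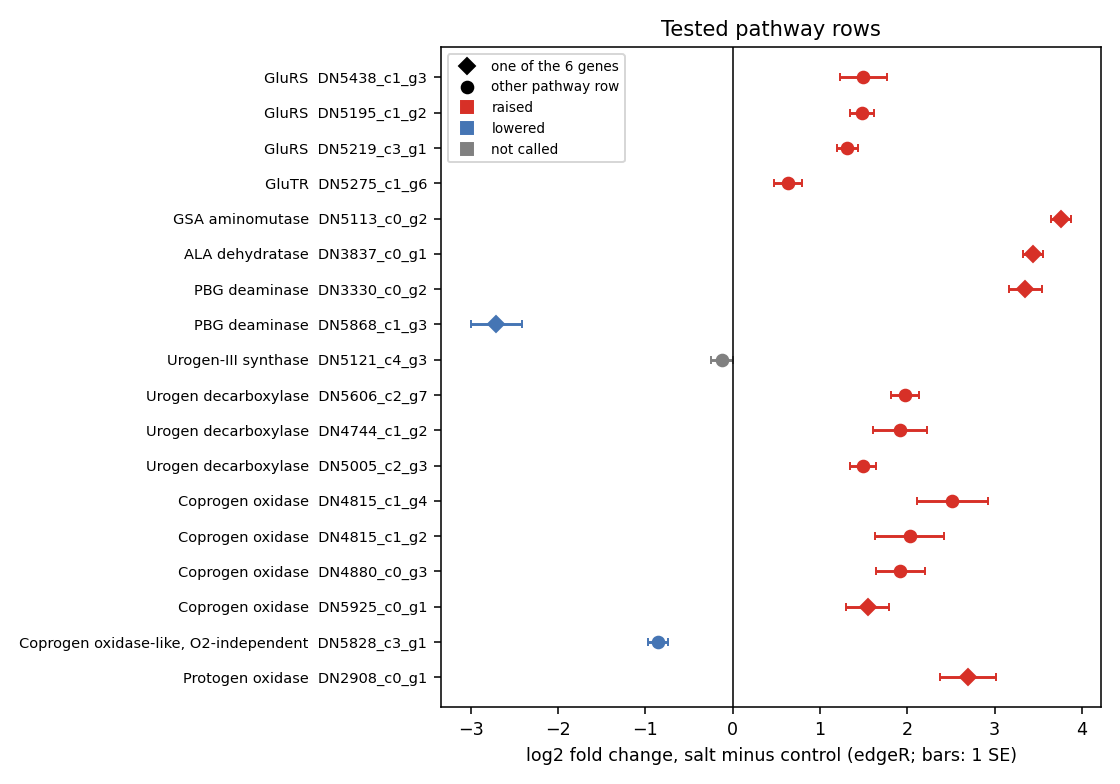
Log2 fold change of salt minus control (edgeR, bars are 1 SE) for the 18 tested pathway rows, ordered by step from glutamyl-tRNA synthetase (GluRS) and reductase (GluTR) at the top to protoporphyrinogen oxidase at the bottom. Diamonds are the 6 genes, circles other rows; 15 are raised, 2 lowered and uroporphyrinogen-III synthase is not called.

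Upstream of the aminomutase the increases were smaller. Glutamyl-tRNA reductase (TRINITY_DN5275_c1_g6), known as the main control point of the pathway in plants, had 496, 402 and 427 CPM in control and 805, 619.5 and 629 CPM in salt. Its log2 fold change was 0.63 (SE 0.16, edgeR adjusted p = 0.0131), and the call was lost without control replicate 2 (adjusted p = 0.055) or control replicate 3 (adjusted p = 0.0527). In the authors' deposited table this gene has a log2 fold change of 0.68 and an FDR of 0.0168 and is not marked significant.

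Rows named glutamate-tRNA ligase, which load glutamate onto its transfer RNA, rose by log2 fold changes of 1.498 (SE 0.27) for the chloroplast and mitochondrial form (TRINITY_DN5438_c1_g3) and 1.32 (SE 0.12) for the form matched to a cytoplasmic enzyme (TRINITY_DN5219_c3_g1). The second of these is a mixed row, with the synthetase domains in 1 reading frame and pentatricopeptide repeats in another, and its counts can come from either part. A row matched to a bifunctional glutamate and proline ligase (TRINITY_DN5195_c1_g2) rose by 1.49 (SE 0.14), but its listed domains are those of the proline enzyme. The highest of these 3 edgeR adjusted p-values was 0.00297.

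Uroporphyrinogen-III synthase (TRINITY_DN5121_c4_g3), which closes the ring, was the only tested step with no called row. It had 74.8, 86.5 and 97.8 CPM in control and 77.0, 77.0 and 83.3 CPM in salt, and the groups overlapped. Its log2 fold change was -0.13 (SE 0.13, edgeR adjusted p = 0.425), against 3.35 and 1.98 for the most raised rows of the steps before and after it. The row holds 2 reading frames, 1 with the synthase domain and 1 with an FAD-binding domain. Its implied length was 1475 ± 184 bases in control and 1831 ± 46.6 bases in salt (SD, n = 3). That ratio was 1.24, where 95% of the 9212 genes compared were under 1.10. In FPKM, which divides by this length, it had 51.9, 57.5 and 64.6 in control. In salt it had 42.9, 42.6 and 45.4 FPKM, all below the controls. The authors' deposited log2 fold change is -0.39 (FDR 0.726), not marked significant. The flat level thus holds for counts and not for FPKM.

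Uroporphyrinogen decarboxylase, which trims the acetate side chains of the ring, had 3 rows that all rose. TRINITY_DN5606_c2_g7 changed by 1.98 (SE 0.16), TRINITY_DN4744_c1_g2 by 1.91 (SE 0.31) and TRINITY_DN5005_c2_g3 by 1.496 (SE 0.15), with edgeR adjusted p-values of at most 0.00183. TRINITY_DN4744_c1_g2 had 15.9 CPM in control replicate 1 against 33.7 and 32.5 in the other controls, the opposite of what protoporphyrinogen oxidase showed there. TRINITY_DN5005_c2_g3 is a fused row that also holds glycosyl hydrolase and rRNA methyltransferase domains in other reading frames.

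Levels were also summed over the rows named for each step, except that coproporphyrinogen oxidase was summed over the 4 rows with its domain only. Of these 9 totals, 8 had all salt libraries above all control libraries, as had 34.1% of all tested genes. The totals are sums of rows already described, so they are not separate evidence. The summed log2 ratio was 1.43 for glutamyl-tRNA synthetase, 0.63 for glutamyl-tRNA reductase, 3.76 for the aminomutase, 3.44 for the dehydratase, 2.21 for the deaminase, 1.67 for uroporphyrinogen decarboxylase, 1.86 for coproporphyrinogen oxidase and 2.70 for protoporphyrinogen oxidase. For uroporphyrinogen-III synthase it was -0.13. Several totals hold counts of mixed or fused rows, which cannot be split. TRINITY_DN5925_c0_g1 supplied 63.2 to 72.6% of the coproporphyrinogen oxidase CPM in control and 53.5 to 56.5% in salt. TRINITY_DN5005_c2_g3 supplied 134.6 of 206.7 mean CPM of the decarboxylase total in control and 380 of 659 in salt. The totals for glutamyl-tRNA synthetase and uroporphyrinogen-III synthase also include such a row. With the lowered row TRINITY_DN5828_c3_g1 included, the coproporphyrinogen oxidase total changed by 1.51, and without TRINITY_DN5195_c1_g2, the row with the domains of the proline enzyme, the glutamyl-tRNA synthetase total changed by 1.39. In both of these sums, which were added after the data were seen, all salt libraries stayed above all control libraries. In CPM the deaminase step thus rose less than its raised row, because the lowered row supplied a large part of the control counts. These sums are not divided by length, which gives longer rows more weight. The lowered row had an implied length of 3041 bases in control, against 1591 for the raised row. Of the summed FPKM it held 36.9 to 42.2% in control.

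**Figure D5:**
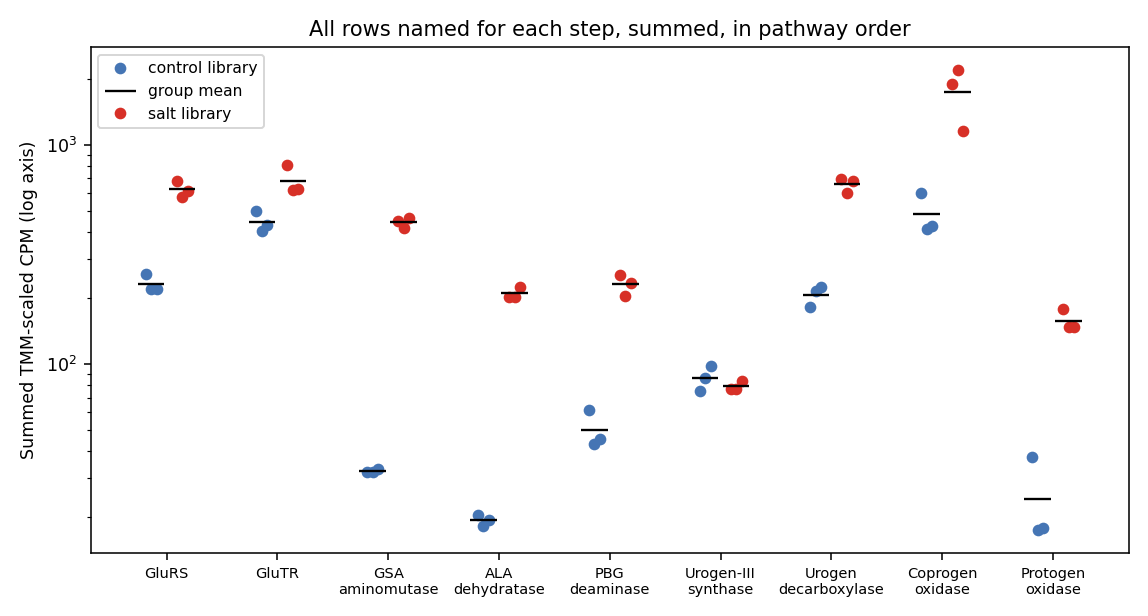
TMM-scaled CPM (log axis) summed over the rows named for each step (for coproporphyrinogen oxidase, the 4 rows with its domain), in pathway order, with 1 point per library and bars for group means. Every step but uroporphyrinogen-III synthase (urogen-III synthase) has its salt libraries above its control libraries. Heights of different steps are not divided by transcript length. Totals of glutamyl-tRNA synthetase, uroporphyrinogen-III synthase, uroporphyrinogen decarboxylase and coproporphyrinogen oxidase include mixed or fused rows.

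Genes that act on or draw from this pathway were also counted. Both rows named for regulators rose, as did 29.1% of all tested genes. The homologue of FLUORESCENT IN BLUE LIGHT (TRINITY_DN3174_c0_g2), which in Arabidopsis restrains glutamyl-tRNA reductase, had 9.49, 7.998 and 8.05 CPM in control and 88.3, 64.9 and 64.2 CPM in salt (log2 fold change 3.09, SE 0.18, edgeR adjusted p = 3.67e-05). Glutamyl-tRNA reductase itself changed by 0.63, and this difference was not tested. The GUN4-type tetrapyrrole-binding protein (TRINITY_DN4674_c0_g3), known to stimulate magnesium chelatase and named here after its values were seen, changed by 1.21 (SE 0.31, adjusted p = 0.0136). It had 34.6 CPM in control replicate 1 against 81.6 and 80.1 in the other controls.

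Of 7 rows matching magnesium chelatase or ferrochelatase, the enzymes that use protoporphyrin, 3 rose and 3 fell, and 1 had no call. The last is a sirohydrochlorin ferrochelatase, an enzyme of siroheme synthesis that the word search also caught. Of all tested genes, 29.1% were raised and 28.7% lowered. The smallest p was that of a magnesium chelatase ChlH subunit (TRINITY_DN5006_c0_g1), with 66.4 to 107 CPM in control and 924 to 1152 CPM in salt. The other raised rows were the ChlI subunit (TRINITY_DN5729_c1_g3, log2 fold change 2.85) and the ChlD subunit (TRINITY_DN4693_c0_g1, 1.88), and the lowered rows were a ferrochelatase (TRINITY_DN5896_c2_g2, -0.65) and 2 further ChlH rows (TRINITY_DN5079_c0_g1, -0.64, and TRINITY_DN5079_c0_g2, -0.61); these 5 were named after their values were seen. The 2 lowered ChlH rows share a Trinity cluster and a best match, and whether they are parts of 1 gene was not tested. Of the 3 tested rows of siroheme synthesis, which branches off before coproporphyrinogen, 1 rose and 2 had no call. The raised one was TRINITY_DN3166_c0_g3 (log2 fold change 0.86, SE 0.21, edgeR adjusted p = 0.0106). Heme oxygenase (TRINITY_DN4694_c2_g2), which opens the heme ring, had 213 to 216 CPM in control and 224 to 242 CPM in salt (0.11, SE 0.10, adjusted p = 0.389). No row was named aminolevulinate synthase, the enzyme of the other known route to aminolevulinate in animals and fungi.

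In the authors' deposited table all 6 genes are marked significant, with log2 fold changes of 3.76 for the aminomutase, 3.46 for the dehydratase, 3.39 and -2.61 for the deaminases TRINITY_DN3330_c0_g2 and TRINITY_DN5868_c1_g3, 1.66 for coproporphyrinogen oxidase and 2.70 for protoporphyrinogen oxidase. Of the 20 pathway rows, 15 are marked significant there, and these include the lowered deaminase. The share of all rows marked there is not given here, so these counts cannot be set against a background. Glutamyl-tRNA reductase (0.68, FDR 0.0168) and TRINITY_DN5828_c3_g1 (-0.72, FDR 0.000368) are not marked there. Both were called in the edgeR fit, which used adjusted p alone. The 15 marked rows are therefore not the same as the 15 raised rows above.

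The described rows outside these lists with the most similar profiles were found by Euclidean distance between log2 CPM values over the 6 libraries, each centred on its own mean, among 4688 rows at or above the median level. For both the aminomutase (distance 0.44) and the dehydratase (0.357) it was the same hypothetical protein (TRINITY_DN4922_c0_g2), with 18.2 to 21.8 CPM in control and 207 to 241 CPM in salt. For the raised deaminase it was an ammonium transporter (TRINITY_DN5043_c0_g3, distance 0.439), and for the lowered deaminase a row matched to the human protein atherin (TRINITY_DN4568_c2_g4, 0.247). For coproporphyrinogen oxidase it was a mitochondrial uncoupling protein (TRINITY_DN5947_c3_g1, 0.281), which had 103, 123 and 68.9 CPM in salt replicates 1 to 3 and so also dipped in salt replicate 3. For protoporphyrinogen oxidase it was a ferredoxin-NADP reductase (TRINITY_DN5695_c0_g1, 0.23), with 169.8 CPM in control replicate 1 against 72.9 and 73.4 in the other controls.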

How the data were processed

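Per the labels' protocols, RNA came from a TRIzol extraction; both Illumina and Proton sequencing are named. The authors deposited whole-number read counts per Trinity gene, FPKM per library and mean FPKM per group, and their log2 fold change with its p-value and FDR, per the file headers. No aligner, counter or test is named in the sources used here.

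Counts were fitted over all genes with edgeR 4.0.16 in R 4.3.3 (TMM factors, filterByExpr with a minimum count of 10, quasi-likelihood test on condition, Benjamini-Hochberg adjustment at 0.05). Each SE was taken as the log2 fold change over the root of its F statistic. On this scale, 1 count equals 0.0436 to 0.0629 CPM. Where no read was counted, the limit is 3 counts (0.131 to 0.189 CPM), which covers counting error only. The fit was tested on simulated data. Implied lengths are counts over FPKM with a constant per library removed. Coproporphyrinogen oxidase totals use rows with the Pfam oxidase domain. The members and word lists were chosen with earlier results of these data known. Rows named are the 6 genes, every tested pathway row, the called row with the smallest p of each other list, and the most similar row to each gene; rows beyond these are described as chosen after their values were seen or complete a list of at most 7 rows.

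Same-numbered libraries deviated from their group means together (correlations across genes of 0.37, 0.16 and 0.22 for replicates 1 to 3), but control 2 with salt 3 gave 0.29 and control 3 with salt 2 gave 0.10. Pairing by number was run as an alternative. The others were DESeq2 1.42.0 (size factors and Wald test), upper-quartile factors, library totals, other filters, leaving out libraries, summed Trinity clusters, and limma 3.58.1 on log2(FPKM + 0.1) or log2(FPKM + 1). A batch term for the replicate 1 libraries was added after the data were seen. Sequences of these genes were not used here.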

Additional observations from a re-analysis of the deposited data

How the results depend on the processing

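The estimates for all 6 genes kept their direction and an adjusted p under 0.05 in each of the 18 alternatives, which include summed Trinity clusters. The highest adjusted p was 0.0225, for the summed cluster of TRINITY_DN5868_c1_g3, with a log2 fold change of -0.29. That row held 4.87% of its cluster's counts in control and 0.899% in salt, so this sum cannot show whether the row kept its direction. With the replicate block the log2 fold changes were 3.76 for the aminomutase, 3.44 for the dehydratase, 3.37 and -2.72 for the deaminases, 1.51 for coproporphyrinogen oxidase and 2.78 for protoporphyrinogen oxidase, and no call of the 18 pathway rows changed. The deaminase count ratio, paired by number, changed by 6.10 with an exact p = 0.25, the smallest that 3 pairs allow. The choice of this pair of rows fixed that value too. Without 1 library at a time the ratio changed by 5.79 to 6.35, and 14 to 15 pathway rows were raised and 2 lowered. Library totals without TMM factors moved the median log2 fold change of all genes by 0.18 and called 4064 genes raised and 2658 lowered (60.5% raised, against 50.3%). The summed log2 ratios were then 1.62 for glutamyl-tRNA synthetase, 3.95 for the aminomutase, 3.63 for the dehydratase, 0.053 for uroporphyrinogen-III synthase and 1.85 for uroporphyrinogen decarboxylase. Leaving out 1 library gave 2.51 to 3.16 for protoporphyrinogen oxidase, the highest without control replicate 1. The filter on low counts left 2 of the 20 pathway rows untested, at 3 counts or fewer in all.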
